A study of Homo sapiens with 4 samples.

Results

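The transcripts of 8 genes of the TGF-β and activin pathway were measured in A375 cells before and after they had become resistant to inhibitors of the MAPK pathway. The members were chosen by name as 3 ligands (*TGFB1*, *TGFB2* and *INHBA*), 2 receptors (*TGFBR1* and *TGFBR2*), the signal carrier *SMAD3* and 2 target genes (*SMAD7* and *TGFBI*). No threshold on a measured value entered the rule, but earlier results of these data were known when the members were chosen. They were 8 of the 32991 genes listed in every count table, and all 8 passed the filter on low values, a mean level of 3 CPM over the 4 libraries (CPM, UMIs of a gene per 1000000 UMIs of the library, where a UMI marks 1 captured transcript molecule).

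A375 is an established human melanoma line with the *BRAF* V600E mutation. The libraries were S (untreated, sensitive cells), RV (resistant to the BRAF inhibitor vemurafenib), RVC (resistant to vemurafenib with the MEK1/2 inhibitor cobimetinib) and RVT (resistant to vemurafenib with the MEK1/2 inhibitor trametinib). Resistant cultures had been kept for 10 to 14 days below the IC50 of each drug, and no drug was present during the last 24 h. Each condition was 1 droplet library, so the values describe these libraries and no test between conditions was possible. Ranges in parentheses are 95% intervals (exact Poisson for CPM, exact conditional for folds, Clopper-Pearson for shares of cells) that cover counting error only and hold no spread between cultures.

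The filtered libraries held 4177 to 8446 cells. The median cell had 8799.5 UMIs in S and 11553 in RV, but 3958 in RVC and 2864 in RVT, and the median share of mitochondrial UMIs was 3.06% to 3.58% in the first 3 of these libraries and 5.77% in RVT. RVC and RVT were also counted with another gene list than S and RV, so that treatment, depth and counting cannot be told apart between these pairs of libraries. Pairs of libraries shared 36 to 103 cell barcodes. Of 7 melanocyte lineage markers, 4 had more than 3 UMIs in S, RV and RVT, and 2 in RVC, where *SOX10* and *S100B* were at 0. Their summed level was 129 CPM in S, 67.4 in RV, 62.1 in RVT and 8.28 in RVC, and *TYR* was at 0 in every library. *MITF*, of the same list, had another order, with 9.77, 20.01, 8.13 and 41.9 CPM in S, RV, RVC and RVT in turn, and made up most of the sum in RVC and RVT. Of 5 fibroblast markers, 3 or 4 had more than 3 UMIs in each library, and their summed level ran from 6.65 CPM in RV and 7.04 in S to 32.4 in RVT and 46.9 in RVC. *PTPRC* and *CD3E*, which define leukocytes and T cells, were at 0 in all libraries. *LYZ*, the other gene of the leukocyte list, had 0.496, 0.743, 0.0607 and 0.473 CPM in S, RV, RVC and RVT in turn. The summed level of 3 endothelial markers was 0.410, 0.515, 1.33 and 0.551 CPM in the same order, most of it *PECAM1*.

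In the pathway, a TGF-β or activin ligand joins a type II receptor with a type I receptor, for TGF-β *TGFBR2* and *TGFBR1* in turn. The type I receptor phosphorylates SMAD2 and SMAD3. These enter the nucleus with SMAD4 and change transcription of target genes, among them *SMAD7*, whose product blocks the type I receptor. TGF-β ligands are secreted in a latent form that integrins or thrombospondin can release. Cultured melanocytes are slowed by TGF-β, whereas many melanoma lines secrete the ligands themselves.

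The promoter sequences of the ligands are shown because the ligand transcripts differed in opposite directions between S and RVT. They are the bases before the start site in RefSeq (GRCh38.p14), 5′ to 3′ on the strand of the gene, without bases that GENCODE 29 places in an exon. The motifs searched on both strands were the TATA box TATAAA, the E-box CACGTG, the cyclic AMP response element TGACGTCA, the AP-1 site TGANTCA, the SMAD box CAGAC, the TEAD site GGAATG and the GC box GGGCGG, and every match is in capitals, reversed and complemented where it lies on the other strand. The *TGFB2* bases are chr1:218345086-218345335 (+), those of *INHBA* chr7:41703109-41703340 (-) and those of *TGFB1* chr19:41353923-41354172 (-).
TGFB2: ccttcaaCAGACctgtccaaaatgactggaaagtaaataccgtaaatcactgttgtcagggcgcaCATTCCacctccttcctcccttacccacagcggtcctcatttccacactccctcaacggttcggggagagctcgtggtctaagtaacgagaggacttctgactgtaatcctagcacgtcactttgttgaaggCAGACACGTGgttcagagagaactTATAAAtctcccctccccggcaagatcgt
INHBA: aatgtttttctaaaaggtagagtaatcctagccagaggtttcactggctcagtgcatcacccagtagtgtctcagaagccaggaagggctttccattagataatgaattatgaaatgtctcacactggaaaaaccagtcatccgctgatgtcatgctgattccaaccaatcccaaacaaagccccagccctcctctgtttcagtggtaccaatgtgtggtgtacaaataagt
TGFB1: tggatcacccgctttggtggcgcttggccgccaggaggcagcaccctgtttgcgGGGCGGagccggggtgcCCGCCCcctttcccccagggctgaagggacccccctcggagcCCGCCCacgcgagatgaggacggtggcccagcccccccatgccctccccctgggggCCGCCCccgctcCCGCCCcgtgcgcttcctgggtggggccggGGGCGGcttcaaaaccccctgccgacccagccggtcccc
The *TGFB2* window held 1 TATA box, 1 E-box, 2 SMAD boxes and 1 TEAD site, and the E-box and a SMAD box overlapped by 1 base. Of 34943 windows of 250 bases in the RefSeq table, 10.8% held the TATA box, 6.32% the E-box, 38.0% the SMAD box and 11.9% the TEAD site. The *TGFB1* window held 6 GC boxes, a motif found in 42.5% of windows, and none of the other letters. The printed *INHBA* bases held none of the 7 motifs, and a TATAAA that lies 11 to 6 bases before the RefSeq start is among the 18 bases that GENCODE counts as exon. G and C made up 76.8% of the *TGFB1* window, 50.4% of the *TGFB2* window and 42.8% of the 250 bases before *INHBA*. A match to these letters is a description and not a site shown to be used.

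*TGFB2* was higher in RVC and RVT than in S, while *TGFB1* and *INHBA* were lower. *TGFB2* encodes transforming growth factor β2 (chromosome 1, 218346235 to 218444619, plus strand, GENCODE 29 on GRCh38, as for the members that follow). For this ligand S stood at 0.889 CPM (0.664 to 1.17), RV at 0.667 (0.465 to 0.928), RVC at 18.9 (17.4 to 20.4) and RVT at 104 (100.4 to 108). The level was 21.3-fold above S (16.0 to 28.8) in RVC and 117-fold above S (89.3 to 158) in RVT, and RVT was 5.52-fold above RVC (5.06 to 6.04). S and RV, with 52 and 35 UMIs, did not differ beyond counting error. Fewer cells expressing a gene and less RNA per cell give the same summed level, and the shares of cells are given further on.

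*INHBA* encodes the βA subunit of activin A (chromosome 7, 41667168 to 41705834, minus strand) and had its highest level in S. Its levels were 318 CPM (314 to 323) for S, 206 (203 to 210.3) for RV, 99.99 (96.6 to 103) for RVC and 42.2 (39.7 to 44.8) for RVT. RV was 1.54-fold below S (1.51 to 1.58), RVC 3.19-fold below S (3.07 to 3.31) and RVT 7.54-fold below S (7.09 to 8.03). No neighbouring libraries in this order had overlapping intervals.

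*TGFB1* encodes transforming growth factor β1 (chromosome 19, 41301587 to 41353911, minus strand). Here S stood at 27.3 CPM (26.0 to 28.6), RV at 35.3 (33.7 to 36.9), RVC at 11.2 (10.0 to 12.4) and RVT at 7.48 (6.46 to 8.63). RV was highest, 1.29-fold above S (1.21 to 1.38), while RVC was 2.44-fold below S (2.18 to 2.74) and RVT 3.64-fold below S (3.13 to 4.26). The log2 ratio of RV over S, 0.37, came down to 0.18 in the lowest alternative. *HNRNPUL1*, *CCDC97* and *TMEM91* overlap *TGFB1* on the opposite strand, and whether counting used the strand is not given in the sources used here.

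**Figure D1:**
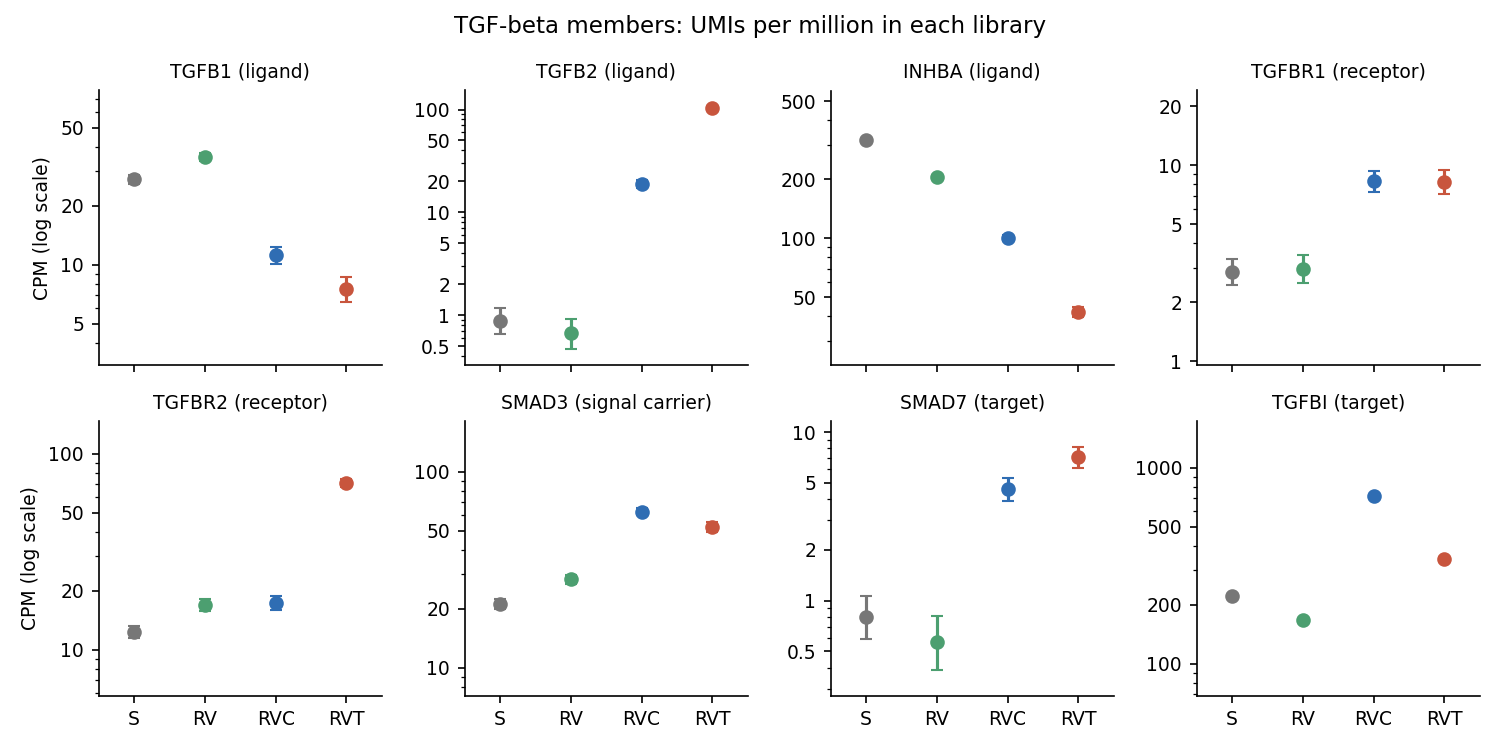
Level of each member in each library, in CPM on a log axis whose range differs between panels. Points are UMIs summed over filtered cells and bars exact Poisson 95% intervals of 1 library each, and *TGFB2* lies near 1 CPM in S and RV and at 104 in RVT while *INHBA* steps down from 318 in S to 42.2 in RVT.

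Together the ligands reached 347 CPM in S, 242 in RV, 154 in RVT and 130.0 in RVC. UMIs of this kit come from the 3′ ends of transcripts and are not scaled by length, although capture may differ between genes. *INHBA* took 91.9% (91.5 to 92.2) of the ligand UMIs in S and 85.2% (84.5 to 85.8) in RV. Its share was 76.9% (75.6 to 78.1) in RVC and 27.4% (26.0 to 28.8) in RVT, where *TGFB2* was the most abundant ligand at 67.7% (66.2 to 69.2). *TGFB2* took 14.5% (13.5 to 15.6) in RVC, 0.256% (0.192 to 0.336) in S and 0.275% (0.192 to 0.383) in RV. With every cell thinned to 1500 UMIs, 36.0% of S cells held a UMI of at least 1 of the ligands, beside 28.8% in RV, 15.1% in RVC and 20.3% in RVT.

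**Figure D2:**
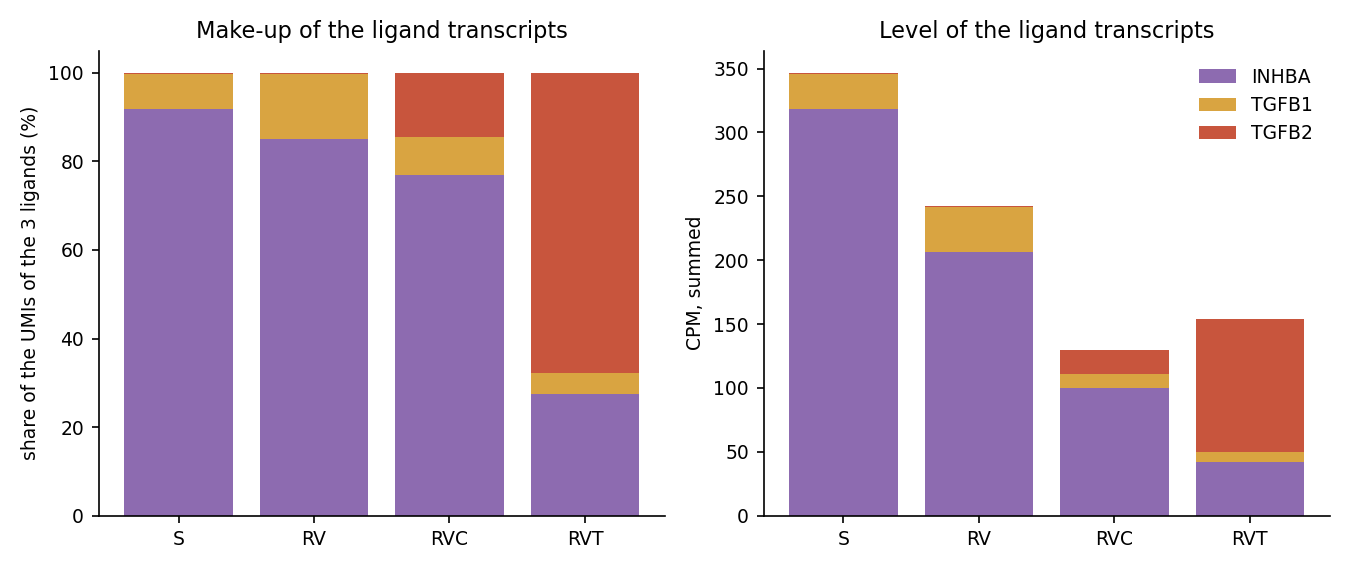
Left, share of *INHBA*, *TGFB1* and *TGFB2* among the UMIs of the 3 ligands in each library (%), and right, their levels stacked in CPM, both axes from 0. *INHBA* fills most of S, RV and RVC, and *TGFB2* makes up 67.7% in RVT, where the summed level is 154 CPM beside 347 in S.

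Both receptors had higher levels in RVT than in S, but they differed in RVC. *TGFBR1*, the type I receptor of TGF-β (chromosome 9, 99104038 to 99154192, plus strand), had levels of 2.87 CPM (2.45 to 3.34) for S, 2.97 (2.53 to 3.48) for RV, 8.31 (7.35 to 9.35) for RVC and 8.23 (7.15 to 9.43) for RVT. RVC was 2.89-fold above S (2.38 to 3.53) and RVT 2.87-fold above S (2.33 to 3.53), and neither S and RV nor RVC and RVT differed beyond counting error. When log2 ratios were centred on genes of like GC content, RVT over S became 0.91 in place of 1.52, under the 2-fold line.

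*TGFBR2*, the type II receptor that binds TGF-β first (chromosome 3, 30606502 to 30694142, plus strand), was highest in RVT. For it S stood at 12.4 CPM (11.5 to 13.3), RV at 17.0 (15.9 to 18.1), RVC at 17.4 (16.0 to 18.9) and RVT at 71.3 (68.1 to 74.7). RVT was 5.77-fold above S (5.29 to 6.29) and 4.10-fold above RVC (3.73 to 4.52). RV was 1.37-fold above S (1.24 to 1.51) and RVC 1.40-fold above S (1.26 to 1.57), and their levels overlapped. With GC centring the log2 ratio of RVT over S was 1.65 in place of 2.53, and that of RVC over S -0.01 in place of 0.49.

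*SMAD3* transmits the signal of TGF-β and activin receptors to the nucleus (chromosome 15, 67063763 to 67195195, plus strand). Its levels came to 21.1 CPM (19.9 to 22.3) for S, 28.3 (26.8 to 29.7) for RV, 62.7 (60.0 to 65.4) for RVC and 52.2 (49.5 to 55.1) for RVT. RVC was 2.97-fold above S (2.77 to 3.19) and RVT 2.48-fold above S (2.29 to 2.68). With TMM factors, which rescale libraries by the bulk of their genes, or with GC centring, its log2 ratio of RVT over S lay under 1, at 0.70 in the lower case.

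The targets did not share an order. *SMAD7*, the inhibitory SMAD that the pathway induces against itself (chromosome 18, 48919853 to 48952052, minus strand), was a rare transcript. For it S stood at 0.803 CPM (0.590 to 1.07), RV at 0.572 (0.386 to 0.816), RVC at 4.58 (3.88 to 5.37) and RVT at 7.09 (6.09 to 8.20). RVC was 5.70-fold above S (4.09 to 8.09) and RVT 8.83-fold above S (6.37 to 12.4), from 47 UMIs in S, 151 in RVC and 180 in RVT. With 1 CPM added to both libraries the log2 ratio of RVC over S was 1.63 in place of 2.51 and that of RVT over S 2.17 in place of 3.14, and GC centring gave 1.91 and 2.19. S and RV did not differ beyond counting error.

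*TGFBI* encodes a secreted matrix protein named for its induction by TGF-β (chromosome 5, 136028895 to 136063818, plus strand), and it was the most abundant member in RVC and RVT. Levels of 221 CPM (217 to 225) for S, 166 (163 to 170.0) for RV, 720.1 (711 to 729) for RVC and 343 (335 to 349.9) for RVT were counted. RVC was 3.26-fold above S (3.19 to 3.33) and RVT 1.55-fold above S (1.51 to 1.59), and RVT was 2.10-fold below RVC (2.05 to 2.15). The log2 ratio of RVT over S, 0.63, came down to 0.03 in the lowest alternative, and that of RVT over RVC, -1.07, to -0.96 with totals that left out ribosomal protein and mitochondrial genes. The summed level of the fibroblast markers was also highest in RVC, where *DCN* had 14.8 CPM beside 2.64 in RVT, but *LUM* was alike in RVC and RVT (22.6 and 22.1 CPM), *PDGFRB* was 5.73 in RVC and 7.52 in RVT, and *COL6A3* was highest in S and RV. Without cells that held a UMI of *DCN* or *LUM* (an alternative chosen after seeing the data) 7 members were at least 2-fold from S in RVC and 7 in RVT, as with all cells. The share of all genes called without these cells was not computed. A cell without such a UMI may still express these genes at this depth. Whether cells of this kind account for the level of *TGFBI* was not tested.

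Against S, 0 members were at least 2-fold higher and 0 at least 2-fold lower in RV, beside 2.48% and 2.0% of 10290 genes tested. In RVC 5 members were higher by this measure and 2 lower, beside 23.0% and 22.0% of 10301 genes. RVT had 5 higher and 2 lower, beside 32.6% and 21.8% of 10300 genes. Between RVT and RVC 2 were higher in RVT (*TGFB2* and *TGFBR2*) and 2 lower (*INHBA* and *TGFBI*), beside 19.1% and 11.3% of 10291 genes. The median log2 ratio of the members was -0.18 in RV, 1.55 in RVC and 1.41 in RVT over S, and -0.14 in RVT over RVC, where all genes tested had 0.02, 0.21, 0.37 and 0.25. In S and RV, *TGFB2*, *SMAD7* and *TGFBR1* lay under 3 CPM, so they passed the filter only through RVC and RVT. For them a call in RVC or RVT over S could hardly be lower, and their higher calls are no support for a rise of the set. The comparisons with S share 1 control library, and the members were chosen with earlier results of these data known.

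This background depended on the scaling. Of all genes at least 2-fold from S, 59.9% were higher in RVT with total UMIs, 39.2% with TMM factors and 46.6% with GC centring, and the values for RVC were 51.1%, 39.6% and 42.9%. Between RVT and RVC they were 62.9%, 39.6% and 43.5%. Totals without ribosomal protein and mitochondrial genes gave 40.7% for RVC over S, 56.8% for RVT over S and 69.7% for RVT over RVC. TMM factors moved the median log2 ratio of all genes from 0.37 to -0.15 in RVT over S and from 0.21 to 0.00 in RVC over S. Under these factors 5 members were higher and 2 lower than S in RVC, beside 16.7% and 25.4% of all genes tested, and 4 higher and 2 lower in RVT, beside 19.4% and 30.1%. With GC centring 5 were higher and 2 lower in RVC, beside 16.6% and 22.1%, and 3 higher and 2 lower in RVT, beside 20.9% and 23.9%.

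**Figure D3:**
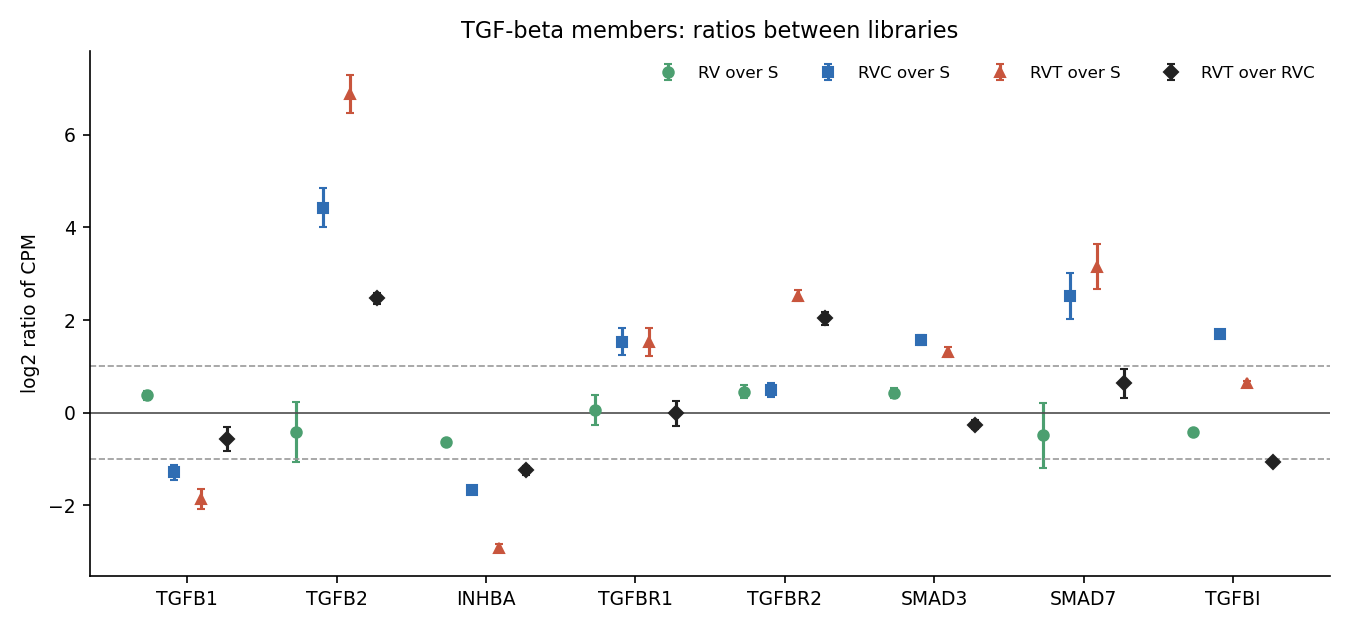
Log2 ratio of CPM for each member in the 4 comparisons, with bars for counting 95% intervals and dashed lines at 2-fold. Ratios of RV over S stay within 2-fold, *TGFB2* reaches 6.88 in RVT over S, and *INHBA* and *TGFB1* lie below 0 in RVC and RVT.

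The share of cells with a UMI moved with depth as well as with level, so it is given for all UMIs and for cells thinned to 1500 UMIs, always in the order S, RV, RVC, RVT. *TGFB2* was found in 0.774% (0.573 to 1.02), 0.838% (0.584 to 1.16), 7.34% (6.77 to 7.95) and 26.0% (25.04 to 26.9) of cells. After thinning the shares were 0.111% (0.0444 to 0.228), 0.0958% (0.0261 to 0.245), 3.14% (2.75 to 3.57) and 14.4% (13.6 to 15.2), and those of S and RV rest on 7 and 4 cells. RVT was highest by either measure. Of thinned RVT cells 1.4996% held more than 1 UMI of *TGFB2*. Thinning left out no cell in S and RV, 397 in RVC and 844 in RVT.

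*INHBA* was found in 77.7%, 77.1%, 21.3% and 10.6% of cells, and after thinning in 32.9% (31.8 to 34.1), 24.6% (23.3 to 26.0), 10.8% (10.1 to 11.5) and 5.92% (5.40 to 6.47). S and RV, close together with all UMIs, were apart beyond counting error at equal depth. *TGFB1* had 21.6%, 34.6%, 4.69% and 2.23%, and 4.45% (3.96 to 4.99), 4.96% (4.32 to 5.66), 1.80% (1.504 to 2.13) and 1.10% (0.882 to 1.37) after thinning. Its gap between S and RV, wide with all UMIs, was within counting error at equal depth.

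*TGFBR2* had 9.66%, 17.5%, 7.08% and 18.4% with all UMIs, so that RVC came last. At equal depth the order followed the level, with 1.61% (1.31 to 1.95), 2.32% (1.89 to 2.83), 2.72% (2.36 to 3.13) and 10.4% (9.68 to 11.1). *TGFBI* had 71.0%, 74.0%, 82.6% and 56.1%, and 24.6% (23.6 to 25.7), 21.5% (20.2 to 22.8), 58.5% (57.4 to 59.7) and 38.5% (37.4 to 39.6) after thinning. RVT, the lowest library for *TGFBI* with all UMIs, was above S and RV at equal depth.

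*SMAD3* gave 16.0%, 27.8%, 22.3% and 14.1% with all UMIs and 2.86%, 4.14%, 9.13% and 7.09% after thinning. *TGFBR1* gave 2.59%, 3.59%, 3.43% and 2.45%, then 0.426%, 0.455%, 1.11% and 1.28%. *SMAD7* gave 0.742%, 0.718%, 1.95% and 2.10%, then 0.0947%, 0.120%, 0.719% and 1.22%. All cells are of 1 line, so that no cell type without these genes was at hand to set the share that free RNA gives.

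**Figure D4:**
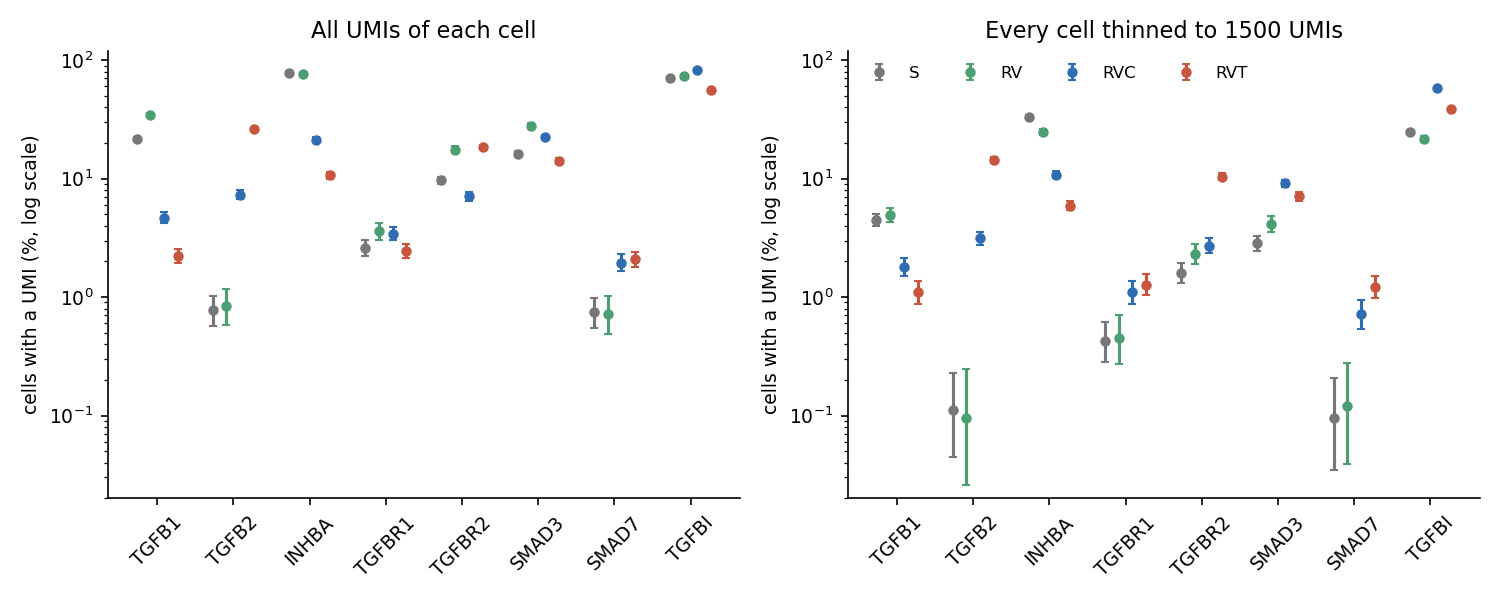
Share of cells with at least 1 UMI of each member (%, log axis) with all UMIs (left) and with every cell thinned to 1500 UMIs (right), with Clopper-Pearson 95% intervals. For *TGFBI* and *SMAD3* RVT is the lowest library at left and lies above S at right.

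Among cells of 1 library, UMIs of *INHBA* and *TGFBI* were spread more widely than those of most genes of like mean. The variance of thinned UMIs over their mean was 1.84 for *INHBA* in RVC, where the median over 672 genes of like mean was 1.02 and 99.7% of them lay below *INHBA*. For *TGFBI* in RVC it was 1.66 beside a median of 1.12. *TGFB2* had 1.12 in RVC, above 99.1% of 2263 like genes, and 1.05 in RVT, above 85.5% of 715.

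Target genes were then read in cells with and without a UMI of a ligand, all thinned to 1500 UMIs. Such cells share their library and are no replicates, and a single UMI splits them coarsely. The intervals are of UMIs pooled over cells and hold no spread between cells, so they are too narrow for widely spread genes such as *TGFBI* and *INHBA*. In RVC, the 227 cells with *TGFB2* had 1301 (1183 to 1428) CPM of *TGFBI* and the 7004 cells without had 727 (711 to 743). In RVT, the 1096 cells with *TGFB2* had 349 (321 to 378) CPM of *TGFBI* and the 6506 cells without had 344 (332 to 356), which overlapped. The RVT cells with *TGFB2* also had 43.2 CPM of *INHBA* beside 43.0, and 76.6 of *TGFBR2* beside 75.8.

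Splitting by *INHBA* gave another picture in RVC. The 780 RVC cells with an *INHBA* UMI had 273 (244 to 304) CPM of *FN1*, which encodes fibronectin, beside 67.5 (62.4 to 72.9) in the 6451 cells without. They had less *TGFBI*, 581 (538 to 627) CPM beside 765 (747 to 782). In RVT, the 450 cells with *INHBA* had 34.1 (21.6 to 51.1) CPM of *FN1* beside 29.7 (26.6 to 33.2) in the others, which overlapped. In S, the 2087 cells with *INHBA* had 265 (248 to 284) CPM of *PMEPA1* beside 221 (209 to 233), and 177 (162 to 192) of *TGFBI* beside 232 (220.0 to 244). The 339 thinned RVC cells with a UMI of *DCN* or *LUM* had 291 (246 to 342) CPM of *INHBA* and 299 (253 to 350.4) of *FN1*, beside 92.1 and 79.3 in the other RVC cells. Without such cells the log2 ratio of *INHBA* in RVC over S was -1.89 in place of -1.67, and that of RVT over RVC -1.05 in place of -1.24. *FN1* and the pairs of genes compared within libraries were chosen after their values were seen.

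Genes with the profile most like each member were named by the smallest distance of log2 CPM, centred on its mean over the 4 libraries. They came from 6496 genes with a mean of 10 CPM or more and a UMI in every library. Genes at 0 in a library could therefore not be named. Around *TGFB2* 0 genes lay within a distance of 0.5, and the nearest were *C1S* at 1.38, *PCDH10* at 1.61 and *SEPHS2* at 1.85. *C1S* had 0.291, 0.210, 17.6 and 74.2 CPM in the order of the libraries. *TGFBR2* had 36 genes within 0.5, the nearest being *AC020916.1*, *RBPMS* and *CRIM1*, and *INHBA* had 25, led by *SNHG25*, *SAAL1* and *ETFB*. The profile of *TGFBI* was shared to this distance by 87 genes (*MTERF4*, *AC005921.2* and *CWC25* first), that of *TGFB1* by 174 (*TAF6*, *ABHD11* and *B3GNTL1*) and that of *SMAD3* by 354 (*SPRYD4*, *C3orf38* and *NDUFB4*). *TGFBR1* and *SMAD7* lay under 10 CPM.

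The other genes of the pathway were taken from role lists of 54 genes in all, of which 34 passed the filter on low values. In RV 4 were at least 2-fold higher than in S and 5 lower, beside 2.48% and 2.0% of all genes tested. In RVC 6 were higher and 13 lower, beside 23.0% and 22.0%, and in RVT 19 higher and 4 lower, beside 32.6% and 21.8%. Against RVC, 18 were higher and 3 lower in RVT, beside 19.1% and 11.3%. Their median log2 ratio was -0.26, -0.14, 1.20 and 1.05 in these comparisons, where all genes tested had 0.02, 0.21, 0.37 and 0.25. With TMM factors 12 were higher in RVT than in S, beside 19.4% of all genes, and 10 higher in RVT than in RVC, beside 11.04%. Levels of these genes are given in the order S, RV, RVC, RVT.

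Of 7 other ligands 1 passed, *GDF11*, a ligand of activin receptors, with 14.4, 8.73, 20.4 and 29.5 CPM. Its ratio of RVT over S, 2.05-fold (1.85 to 2.26), lay under 2-fold in 7 of 11 alternatives. *TGFB3*, which encodes the third TGF-β ligand and is named after its values were seen, did not pass the filter and had 0.461, 0.114, 1.09 and 2.95 CPM, 2.37-fold above S (1.40 to 4.05) in RVC and 6.40-fold above S (4.07 to 10.3) in RVT, from 27 UMIs in S. *NODAL* was at 0 in all libraries, and 3 UMIs would be 0.118 CPM in the shallowest, RVT. *INHBB*, another activin subunit gene, had at most 3 UMIs in a library, and *MSTN*, which encodes myostatin, at most 5. *INHBE* and *INHA*, also under the filter, lay below S in RVC and RVT, where *TGFB3* lay above it. *INHBE* had 2.61, 0.648, 0.212 and 0.0394 CPM, 12.3-fold below S (5.84 to 31.1) in RVC, and its RVT value was under the level of 3 UMIs. *INHA* had 1.32, 1.11, 0.425 and 0.630 CPM, 3.10-fold below S (1.74 to 5.93) in RVC and 2.09-fold below S (1.21 to 3.83) in RVT.

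Of 10 genes of latency and activation 7 passed. In RVC 2 were at least 2-fold above S and 5 below, beside 23.0% and 22.0% of all genes tested. In RVT 3 were above and 1 below, beside 32.6% and 21.8%. *THBS1* encodes thrombospondin-1, which can release latent TGF-β, and had 32.5, 75.1, 10.5 and 657 CPM. RV was 2.31-fold above S (2.19 to 2.44), RVC 3.09-fold below S (2.75 to 3.47) and RVT 20.2-fold above S (19.3 to 21.2). *ITGAV* and *ITGB8* encode the αv and β8 chains of an integrin that releases TGF-β. *ITGAV* had 8.72, 5.07, 40.9 and 68.1 CPM, 4.69-fold above S (4.23 to 5.20) in RVC and 7.82-fold above S (7.08 to 8.65) in RVT. *ITGB8* had 19.8, 9.55, 1.06 and 20.8 CPM, so that RVT and S did not differ beyond counting error and RVC was 18.7-fold below S (13.3 to 26.9). *LTBP1*, which tethers latent TGF-β to matrix, had 0.872, 1.01, 12.8 and 7.60 CPM, 14.7-fold above S (10.96 to 20.04) in RVC and 8.72-fold above S (6.38 to 12.1) in RVT. *ITGB6* and *LRRC32* had at most 4 UMIs in a library and were at 0 in RVT.

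Of 7 other receptors 4 passed. *ACVR2A*, a type II receptor for activins, had 1.83, 1.39, 15.2 and 11.7 CPM, 8.29-fold above S (6.72 to 10.3) in RVC and 6.42-fold above S (5.13 to 8.08) in RVT. *ACVR1B*, the type I activin receptor, had 3.02, 2.17, 4.85 and 10.8 CPM, and *ACVR2B*, the other type II activin receptor, 3.49, 2.71, 3.37 and 6.58 CPM. *ENG*, which encodes the coreceptor endoglin, had 18.1, 15.2, 7.19 and 10.3 CPM. Its log2 ratio of RVC over S, -1.33, was 0.38 after GC centring, and that of RVT over S, -0.82, was 0.96, so its direction depended on the scaling.

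The other signal carriers were at least 2-fold above S in RVT alone, where 32.6% of all genes tested were. *SMAD2*, which like SMAD3 is phosphorylated by the receptor, had 23.8, 28.5, 17.2 and 85.4 CPM, and RVT was 3.59-fold above S (3.35 to 3.84). *SMAD4*, the partner shared by the branches of the family, had 6.56, 8.29, 9.55 and 25.9 CPM, and RVT was 3.94-fold above S (3.47 to 4.48). *ZFYVE9*, which presents SMADs to the receptor, had 2.32, 1.64, 2.06 and 6.30 CPM, and its ratio of RVT over S lay under 2-fold with TMM factors or GC centring. *SMAD3*, by contrast, was at least 2-fold above S in RVC as well.

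Of 12 inhibitors 11 passed. In RVC 1 was at least 2-fold above S and 3 below, beside 23.0% and 22.0% of all genes tested. In RVT 6 were above and 1 below, beside 32.6% and 21.8%. *FST* encodes follistatin, which binds activin, and had 31.7, 50.8, 0.667 and 79.5 CPM. RVC, with 22 UMIs, was 47.5-fold below S (31.3 to 75.9), and RVT 2.51-fold above S (2.36 to 2.67), which was under 2-fold with TMM factors or GC centring. *PMEPA1*, which is induced by TGF-β and dampens SMAD signalling, had 217, 71.3, 51.2 and 18.7 CPM, in the same order of libraries as *INHBA*. RVT was 11.6-fold below S (10.6 to 12.7). *BAMBI*, which encodes a pseudoreceptor, had 2.58, 0.419, 2.40 and 7.44 CPM, and *PPM1A*, a SMAD phosphatase gene, 4.49, 4.82, 10.9 and 23.0 CPM. With GC centring, *BAMBI* in RVT and *PPM1A* in RVC were under 2-fold from S.

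**Figure D5:**
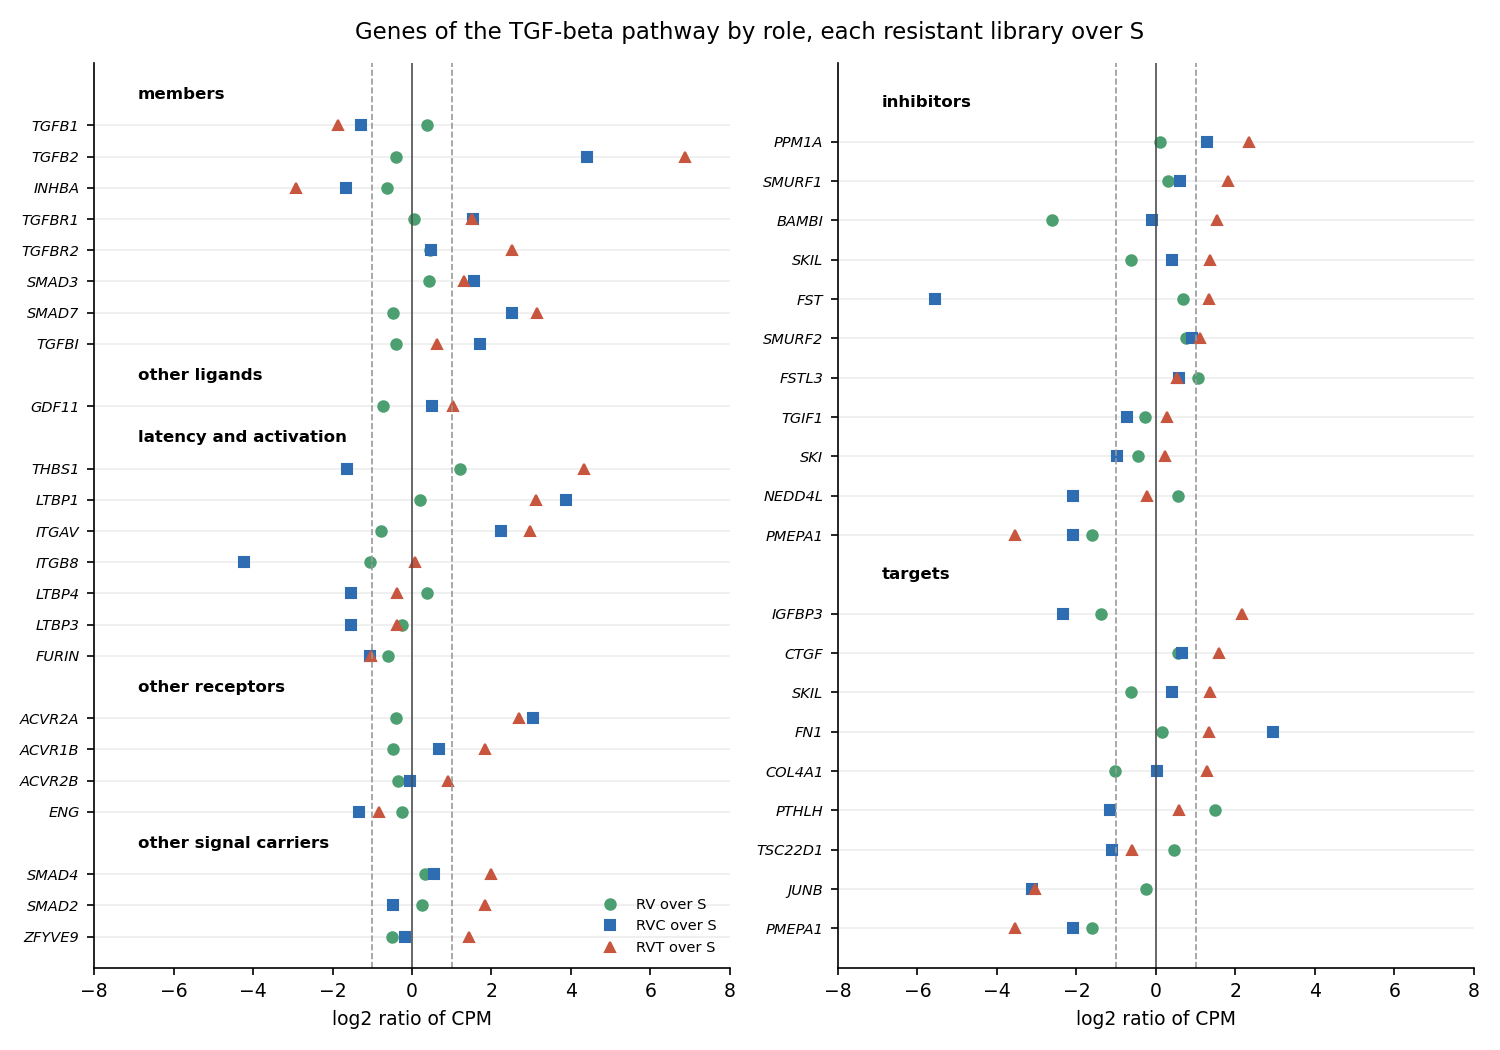
Log2 ratio of CPM over S for the members and for other pathway genes with a mean of at least 3 CPM, 1 gene a row, grouped by role, with RV, RVC and RVT in 3 colours and dashed lines at 2-fold. RVT lies right of RVC for *THBS1*, *FST* and *IGFBP3* and left of it for *FN1* and *PMEPA1*.

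The list of 18 further targets, of which 10 passed, gave no common direction. It shares *PMEPA1* and *SKIL* with the inhibitors and *LTBP2* with the genes of latency, and the count over all lists takes each gene once. In RV 2 targets were at least 2-fold above S and 3 below, beside 2.48% and 2.0% of all genes tested. In RVC 2 were above and 5 below, beside 23.0% and 22.0%. In RVT 5 were above and 3 below, beside 32.6% and 21.8%. Their median log2 ratios were -0.06, -0.54 and 0.94, where all genes tested had 0.02, 0.21 and 0.37. With TMM factors 2 were above S in RVT, beside 19.4% of all genes tested. *IGFBP3*, which encodes a secreted binding protein of insulin-like growth factors, had 33.7, 13.0, 6.70 and 151 CPM, 5.03-fold below S (4.38 to 5.81) in RVC and 4.48-fold above S (4.25 to 4.74) in RVT. *JUNB*, an AP-1 factor gene, had 106, 88.5, 12.2 and 12.9 CPM and was 8.71-fold below S (7.87 to 9.66) in RVC and 8.22-fold below S (7.36 to 9.22) in RVT. *CDKN2B* was at 0 in all libraries, *COL1A2* had 9 UMIs in RVC and 0 in the others, and *LOX* had at most 10 in a library.

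Ligands and targets set side by side differed by library. In RV, where *TGFB1* was 1.29-fold above S and *INHBA* 1.54-fold below, *TGFBI* was 1.33-fold below S (1.29 to 1.36), *PMEPA1* 3.05-fold below S (2.94 to 3.16) and *IGFBP3* 2.59-fold below S (2.37 to 2.82), and *SMAD7* did not differ beyond counting error. Other targets of the list, named after their values were seen, were higher in RV, with *PTHLH* 2.82-fold above S (2.42 to 3.30), *CTGF* 1.48-fold above S (1.30 to 1.67) and *TSC22D1* 1.38-fold above S (1.33 to 1.43). In RVC, with *TGFB2* 21.3-fold above S, *TGFBI*, *SMAD7* and *FN1* (90.4 beside 11.7 CPM) were higher than in S, while *PMEPA1*, *JUNB* and *IGFBP3* were lower. In RVT, *TGFB2*, *TGFBR2*, *SMAD2*, *SMAD4*, *SMAD7* and *IGFBP3* had their highest levels of the libraries, while *PMEPA1* was 11.6-fold and *JUNB* 8.22-fold below S. *TGFBI* was 1.55-fold above S and 2.10-fold below RVC. Also above S in RVT were *CTGF* (3.03-fold), *SKIL* (2.57-fold), *FN1* (2.53-fold) and *COL4A1* (2.44-fold), of which *SKIL* and *COL4A1* were named after their values were seen. TMM factors left 2 of the 5 list targets at least 2-fold above S in RVT.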

How the data were processed

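RNA of 4 cultures of A375 cells, 1 library each, was captured with 10x Chromium v2 (10000 cells loaded per library). The authors deposited raw UMI counts per gene and barcode, made with Cell Ranger (version not given in the sources used here) after bcl2fastq 2.20.0.422 on GRCh38. The gene annotation is not given in the sources used here: S and RV list 33694 genes, RVC and RVT 33538, and the 32991 in all tables were used.

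Barcodes with at least 500 genes and at most 20% mitochondrial UMIs were kept. The doublet caller of scanpy 1.11.5 marked at most 4 barcodes in a library by its own threshold, so the highest scores were removed at 0.8% per 1000 barcodes. This left 6334 (S), 4177 (RV), 7628 (RVC) and 8446 (RVT) cells of 6695, 4328, 9266 and 10427 barcodes, with 58519152, 52461572, 32974745 and 25390117 UMIs. A level of 3 UMIs was 0.0513 CPM in S and 0.118 in RVT.

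Counts were summed per library and divided by total UMIs (python 3.11.15, numpy 2.4.6, pandas 2.3.3, scipy 1.17.1, and matplotlib 3.10.9 for plots). A gene was called at a 2-fold ratio where its mean was at least 3 CPM. With 1 library per condition no count model was fitted, and edgeR 4.0.16 (R 4.3.3) gave TMM factors only. Beside each comparison, the share of genes called is given. For shares of cells, each cell was thinned to 1500 UMIs. In each role list, up to 4 genes that passed the filter were named by size of change, and the 3 genes of most similar profile per member. The values of 1 target gene are not reported or plotted here, though list counts include it. The ratio script was tested on simulated data. The members and lists were chosen with earlier results of these data known. Alternatives covered scaling, filters on genes and cells, equal weights per cell, thinning, an added 1 CPM and the size of a call.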

Additional observations from a re-analysis of the deposited data

Results flagged for a closer look

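For 4 of the genes named by size of change in the role lists, ratios over S were at least 2-fold in opposite directions in different resistant libraries. The target gene whose values are not reported was left out of this search. Genes of the lists not named by size of change were not searched. Among them, at least *PTHLH* (higher in RV, lower in RVC) and *COL4A1* (lower in RV, higher in RVT) also met this condition. Each ratio compares 1 library with the same S library, and the difference between the resistant libraries was not tested. The share of all genes that meet the condition was not computed, and genes named for a large ratio meet it more readily. The number of genes found is therefore no result about the pathway. The log2 ratio of *THBS1* was 1.21 for RV, -1.63 for RVC and 4.34 for RVT. *FST* had -5.57 in RVC and 1.33 in RVT, the latter under 1 with TMM factors or GC centring. *BAMBI* had -2.62 in RV and 1.53 in RVT, the latter under 1 with GC centring. *IGFBP3* had -1.37 in RV, -2.33 in RVC and 2.16 in RVT. None of the 8 members met this condition. With 1 library per group, no library could be compared with others of its group.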

How the results depend on the processing

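Of 206 counts recomputed under the alternatives, 193 stayed within 1.5 times and 13 did not, for which the cause was not tested. With 1.5-fold as the size of a call, 1 member in place of 0 was called in RV. TMM factors left 2 of 5 target genes higher in RVT than in S, 12 of 19 other pathway genes higher in RVT than in S, and 10 of 18 higher in RVT than in RVC. Without the filter on low genes, 13 in place of 6 other pathway genes were higher in RVC than in S, 8 in place of 4 lower in RVT than in S and 8 in place of 3 lower in RVT than in RVC. At 1.5-fold 10 were higher in RVC than in S. Members with a higher share of cells in RVT than in S numbered 3 with all UMIs, 5 in cells with at least 1000 genes, 6 when thinned to 1500 UMIs, 6 with another draw of them and 6 when thinned to 1000. In RV such members numbered 6 with all UMIs and 3 with that other draw. For shares of cells, for calls at 1.5-fold and for calls without the low filter, the share of all genes was not computed. These counts show only how the calls move with the setting.

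Leaving out cells with a UMI of *MKI67*, *TOP2A* or *CDK1*, or of *DCN* or *LUM* (both chosen after seeing the data), moved no count of members at least 2-fold apart by over 1.5 times. Of 352 recomputed ratios of members, 92 left the counting interval of the value reported, and 0 ratios of at least 2-fold changed sign. The log2 ratio of *TGFB2* ranged from 3.40 to 4.93 in RVC and from 5.80 to 7.18 in RVT over S, and that of *INHBA* from -2.27 to -1.40 and from -3.87 to -2.85. With 1 library per condition the spread between cultures is unknown, and no replicate could be left out. Depth limits the rare members: *TGFB2* and *SMAD7* in S and RV rest on 30 to 52 UMIs.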
